A study of Mus musculus with 258 samples.

Results

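The genes described here are 63 members of the Wnt signalling pathway, taken by symbol from the 40824 genes of the deposited mouse count tables. They comprise all Wnt ligands, frizzled receptors, the secreted inhibitors of the Sfrp, Dkk, Wif1 and Notum kinds, the R-spondins with their Lgr receptors, Lrp5 and Lrp6, the ligases Rnf43 and Znrf3, the cytoplasmic proteins of the Axin, Apc, Dvl and Nkd kinds with beta-catenin (Ctnnb1), and the TCF and LEF factors. The study followed pancreatic progenitors of the mouse embryo as they commit to the endocrine lineage. Its chromatin samples are not used here.

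In bulk, 3 sorted populations were sequenced, each as 2 libraries. Those named Ngn3-low and Ngn3-high were sorted from dorsal pancreas at E13.5 by an Ngn3-GFP reporter, and Ins1-RFP+ cells, the nascent beta cells of the study, were taken at E17.5 by an Ins1-RFP reporter. Ngn3 (gene symbol Neurog3) is the factor that starts endocrine commitment, and Ins1 is an insulin gene. Embryonic day and reporter therefore change together between Ins1-RFP+ and the other groups and cannot be told apart. Single cells of E13.5 dorsal pancreas formed 4 groups: 44 Ngn3-high cells and 69 Ngn3-low cells of genotype Pdx1-Cre; Jmjd3 fl/fl, called Jmjd3-deleted below, and 59 Ngn3-high and 49 Ngn3-low cells labelled WT. Jmjd3 (gene symbol Kdm6b) removes methyl groups from histone H3 lysine 27, and Pdx1-Cre deletes floxed sequence in pancreatic epithelium. No Cre is named for the WT cells, so Cre and the deletion cannot be told apart. The labels name no animals, so p-values measure the spread between these libraries, which may be technical, and each single-cell group counts as 1 sample and is not tested.

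In the canonical pathway a Wnt ligand binds a frizzled receptor together with Lrp5 or Lrp6. Dishevelled proteins (Dvl) then halt a destruction complex built on Axin and Apc, beta-catenin accumulates, and TCF and LEF factors switch on target genes. R-spondins bind Lgr receptors and keep Rnf43 and Znrf3 from removing frizzled receptors, while Sfrp proteins, Wif1 and Dkk proteins block ligand or co-receptor, and Notum removes the lipid that Wnt ligands need. In the embryonic pancreas the pathway is known for its part in growth of the progenitor epithelium.

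Bulk libraries held 11957415 to 17760214 reads in genes, so 3 reads, the least taken here as detection, equal 0.169 to 0.251 CPM (reads of a gene per 1e+06 reads in genes). Neurog3 stood at 1191 and 1090 CPM in the Ngn3-high libraries, against 193 and 161 CPM in the Ngn3-low libraries. In the Ins1-RFP+ libraries Ins1 reached 32620 and 22570 CPM. Markers of other cells differed between the sorts: 11 macrophage genes, 2 and 3 of them at 0 in the Ngn3-high libraries and 0 of them at 0 in the other bulk libraries, summed to 14.4 and 5.60 CPM in Ngn3-high, against 4652 and 3958 CPM in Ngn3-low, and 11 endothelial genes to 15.7 and 9.87 against 486 and 531 CPM. In Ins1-RFP+ these sums were 75.4 and 140 CPM for macrophage and 61.7 and 73.5 CPM for endothelial genes, and 12 acinar genes summed to 1413 CPM in library 1 and 25200 CPM in library 2, against 58.4 and 60.8 CPM in Ngn3-high and 437 and 378 CPM in Ngn3-low. The 12 mesenchymal genes summed to 193 and 725 CPM in Ins1-RFP+, 65.2 and 100.1 CPM in Ngn3-high, and 191 and 131 CPM in Ngn3-low. The 5 mesothelial genes summed to 48.7 and 31.2 CPM in Ins1-RFP+, 4.03 and 3.43 CPM in Ngn3-high, and 5.12 and 7.61 CPM in Ngn3-low. Of the 4 mesothelial genes tested in edgeR, 1 was higher in Ins1-RFP+ than in Ngn3-high and 3 did not pass. Against Ngn3-low 1 was higher, 2 were lower and 1 did not pass, so the higher mesothelial sums do not stand for the whole list. The part of such cells in the bulk results was not tested, and in bulk fewer cells of a type and less RNA per cell cannot be told apart. In the pooled single Ngn3-low cells all 11 macrophage genes had reads, and these genes summed to 4.62 CPM (Jmjd3-deleted) and 8.91 CPM (WT), the endothelial genes to 38.6 and 45.1 CPM, and the mesenchymal genes to 8.02 and 8.04 CPM.

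The leading Wnt ligand was a different one at each stage. On the length-scaled values of the authors (pooled RPKM, 1 value per group), Wnt7b led in Ngn3-low cells at 33.6, with Wnt9a next at 1.79. Wnt9a led in Ngn3-high cells at 7.27, followed by Wnt4 at 2.99 and Wnt7b at 2.61. In Ins1-RFP+ cells Wnt4 led at 8.45, with Wnt5b next at 1.30. Among the frizzled receptors and the Lrp co-receptors, Lrp5 and Lrp6 had the highest RPKM in every group (30.3 and 29.8 in Ngn3-low, 24.2 and 15.7 in Ngn3-high, 15.02 and 15.4 in Ins1-RFP+). Below them came Fzd2 in Ngn3-low at 20.1, Fzd3 in Ngn3-high at 13.7, and Fzd7 in Ins1-RFP+ at 9.0, close to Fzd3 at 8.82. Of the R-spondins Rspo1, Rspo2 and Rspo3 had at most 0.3 RPKM, while Rspo4 stood at 0.08 in Ngn3-low, 9.15 in Ngn3-high and 8.77 in Ins1-RFP+. These pooled values carry no error, so neighbours in these orders are not shown to differ.

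**Figure D1:**
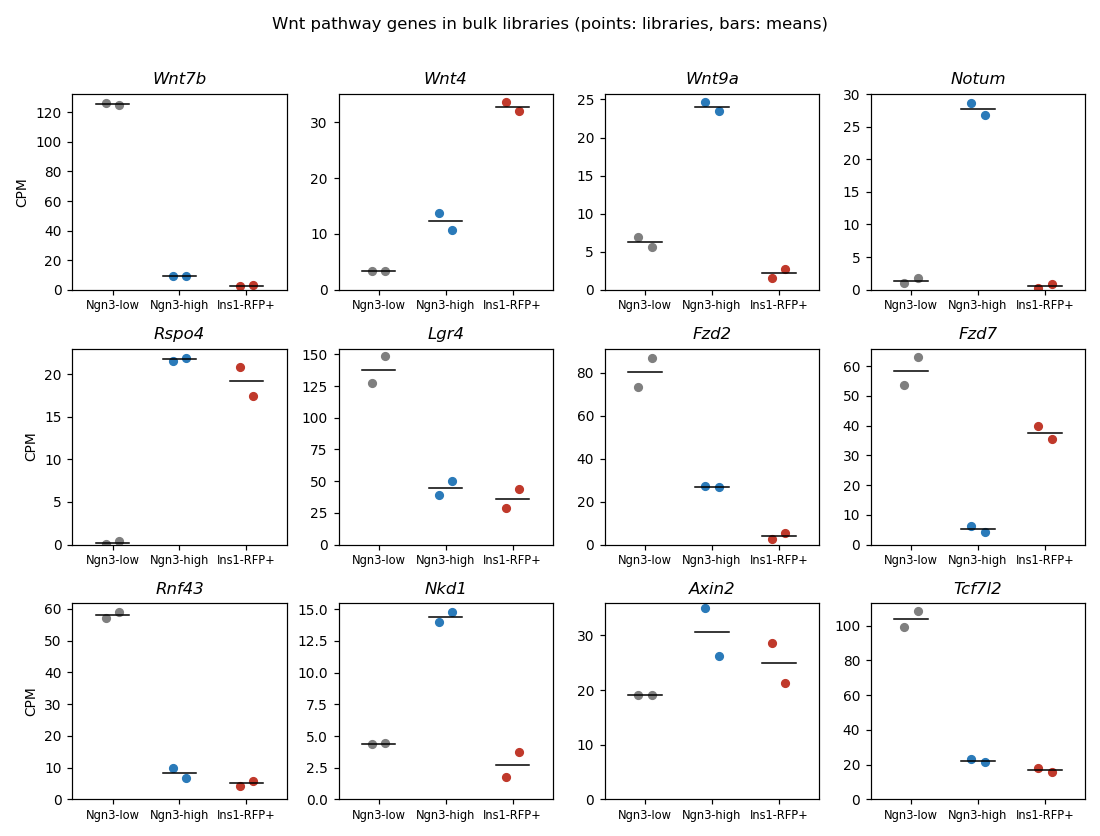
Level of 12 Wnt pathway genes in CPM (vertical axes, each starting at 0) in the 2 libraries of each bulk group, in order of stage; points are libraries and bars are means. Wnt7b, Lgr4, Fzd2, Rnf43 and Tcf7l2 are highest in Ngn3-low, Notum, Wnt9a and Nkd1 in Ngn3-high, and Fzd7 is lowest in Ngn3-high.

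Between Ngn3-high and Ngn3-low cells the question is which genes change as progenitors start endocrine commitment. Of the 63 members, 44 passed the filter on low counts and were tested with edgeR among 15684 genes. In Ngn3-high 13 were higher and 19 lower at an adjusted p under 0.05, while 12 did not pass. Over all genes tested 27.7% were higher and 30.2% lower, so the members are read against a background in which most genes changed. Their median log2 fold change was -0.38, against -0.01 over all genes tested. Summed over all members, the Ngn3-high libraries had 2448 and 2418 CPM, against 3347 and 3381 CPM in Ngn3-low. A few abundant members weigh most in these sums: Ctnnb1, which did not pass, gave 1006 and 1073 CPM of them in Ngn3-high and 1391 and 1288 CPM in Ngn3-low. By role, 4 of 8 ligands rose and 2 fell, 2 of 6 inhibitors rose and 3 fell, 2 of 12 receptors and co-receptors rose and 6 fell, 4 of 9 cytoplasmic members rose and 1 fell, and both ligases and all 4 TCF and LEF factors fell.

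Among the ligands, Wnt7b, which signals from many embryonic epithelia, had 9.13 and 9.03 CPM in Ngn3-high, against 127 and 125 CPM in Ngn3-low. That is 13-fold lower (log2 -3.71 ± 0.13 (SE), adjusted p = 3.89e-07, edgeR). Wnt9a had 24.6 and 23.4 CPM in Ngn3-high and 6.87 and 5.64 CPM in Ngn3-low, 4.04-fold higher (adjusted p = 0.000225, edgeR). Wnt4, a ligand best known from kidney and gonad development, had 13.8 and 10.7 CPM in Ngn3-high against 3.32 and 3.35 CPM in Ngn3-low (3.90-fold, adjusted p = 6.13e-05, edgeR). For these ligands the groups did not overlap. With 2 libraries per group that also held for Wnt5b, which did not pass (adjusted p = 0.448, edgeR). A pair of low ligands also rose in Ngn3-high: Wnt9b had 2.85 and 1.92 CPM against 0.394 and 0.491 CPM, and Wnt3 had 2.19 and 1.67 CPM against no read in either Ngn3-low library. Against a floor of 3 reads over the Ngn3-low group, Wnt3 was at least 19.8-fold higher. Their annotated spans overlap on chromosome 11 of GRCm38 (Wnt9b 103727362 to 103775272, Wnt3 103774175 to 103818021), and the strand setting of the counting is not known here, so reads near the overlap cannot be assigned with certainty. Wnt5a, a ligand of the non-canonical route, fell 2.03-fold in Ngn3-high (1.96 and 2.17 CPM, against 4.39 and 4.50 CPM in Ngn3-low, adjusted p = 0.0366, edgeR).

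The secreted inhibitors split. Notum (chromosome 11, 120653788 to 120661193, GRCm38) had 28.7 and 26.9 CPM in Ngn3-high, against 1.07 and 1.72 CPM in Ngn3-low, 21.5-fold higher (log2 4.43 ± 0.35 (SE), adjusted p = 1.38e-05, edgeR). Wif1, which binds Wnt ligands, had 1.01 and 1.67 CPM in Ngn3-high and no read in Ngn3-low, at least 12.8-fold higher. Sfrp proteins, decoy receptors for Wnt, went the other way. Sfrp1 had 4.51 and 6.11 CPM in Ngn3-high against 23.8 and 22.5 CPM in Ngn3-low (adjusted p = 0.000109, edgeR), and Sfrp5 had 2.14 and 1.84 CPM in Ngn3-high against 6.93 and 32.6 CPM in Ngn3-low (adjusted p = 0.00341, edgeR). The Ngn3-low libraries differed from each other in Sfrp5 by more than the lower of them differed from Ngn3-high, and its log2 fold change of -3.19 was -3.91 without Ngn3-low replicate 1 and -1.73 without Ngn3-low replicate 2. Sfrp2 fell 4.22-fold from a low level (0.237 and 0.920 CPM in Ngn3-high, 2.31 and 2.62 CPM in Ngn3-low), with a log2 fold change of -3.23 without Ngn3-high replicate 2 and -1.35 without Ngn3-high replicate 1.

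Rspo4 showed the largest fold change among members with reads in both groups. It had 21.5 and 21.9 CPM in Ngn3-high, against 0.0563 and 0.409 CPM in Ngn3-low, values that stand for 1 and 5 reads (log2 6.76 ± 0.42 (SE), adjusted p = 3.66e-06, edgeR). This log2 value was 5.81 without Ngn3-low replicate 1 and 8.45 without Ngn3-low replicate 2. Its receptor Lgr4 fell: 39.2 and 50.2 CPM in Ngn3-high, against 127 and 149 CPM in Ngn3-low (2.92-fold lower, adjusted p = 0.000224, edgeR). Rnf43, the ligase that R-spondins hold back and itself a target of the pathway, had 9.96 and 6.69 CPM in Ngn3-high against 57.1 and 58.97 CPM in Ngn3-low (6.50-fold lower, adjusted p = 1.73e-05, edgeR). Its relative Znrf3 fell 1.31-fold (31.1 and 33.6 CPM, against 42 and 48.2 CPM, adjusted p = 0.0214, edgeR). In Ngn3-high cells the ligand of this branch was thus higher, and its receptor and both ligases lower, than in Ngn3-low cells.

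Of the 10 frizzled receptors tested, 5 fell in Ngn3-high and 2 rose, where 30.2% of all genes tested were lower and 27.7% higher. Fzd7 had 6.11 and 4.18 CPM in Ngn3-high, against 53.7 and 62.98 CPM in Ngn3-low (10.5-fold lower, adjusted p = 2.54e-06, edgeR). Fzd2 had 27.2 and 26.6 CPM against 73.4 and 87.0 CPM, Fzd1 6.11 and 4.43 against 22.8 and 23.9 CPM, Fzd4 2.31 and 1.76 against 11.3 and 13.7 CPM, and Fzd5 34.8 and 17.2 against 71.0 and 85.1 CPM, each Ngn3-high first. Their falls ranged over 2.80-fold (Fzd5) to 5.72-fold (Fzd4), with adjusted p between 8.85e-05 and 0.00194 in edgeR. That of Fzd5 (log2 -1.48) was -2.12 without Ngn3-high replicate 1 and -1.06 without Ngn3-high replicate 2, as log2 values. Fzd3, a receptor also known from axon guidance, rose 1.71-fold (49.2 and 67.4 CPM in Ngn3-high, against 34.97 and 37.3 CPM in Ngn3-low, adjusted p = 0.00415, edgeR). Fzd9 rose 3.31-fold at a low level, 1.96 and 2.09 CPM against 0.563 and 0.736 CPM. Of the co-receptors, Lrp6 fell 1.92-fold (146 and 149 CPM, against 294 and 307 CPM, adjusted p = 7.39e-05, edgeR), while Lrp5 did not pass (228 and 196 CPM, against 295 and 281 CPM, adjusted p = 0.0505, edgeR), though it did in 8 of 12 alternatives. Fzd6 (23.4 and 30.4 CPM, against 31.9 and 38.4 CPM), Fzd8 (log2 -0.51, adjusted p = 0.220, edgeR) and Fzd10 did not pass either.

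Inside the cell, beta-catenin itself did not pass: Ctnnb1 had 1006 and 1073 CPM in Ngn3-high, against 1391 and 1288 CPM in Ngn3-low (log2 -0.28 ± 0.13 (SE), adjusted p = 0.0944, edgeR). Of its partners in the destruction complex, Apc (159 and 194 CPM, against 175 and 187 CPM) and Axin1 (89.2 and 77.9, against 91.3 and 88.8 CPM) did not pass. Axin2, a feedback inhibitor that is widely read as a reporter of the pathway, rose 1.71-fold (35.1 and 26.2 CPM in Ngn3-high, against 19.03 and 19.06 CPM in Ngn3-low, adjusted p = 0.0112, edgeR). Nkd1, which binds dishevelled and is also a feedback inhibitor, had 14 and 14.8 CPM against 4.39 and 4.42 CPM (3.46-fold, adjusted p = 0.00128, edgeR). Among the dishevelled genes, Dvl3 had 189 and 161 CPM in Ngn3-high against 88.9 and 92.4 CPM in Ngn3-low (2.05-fold, adjusted p = 8.96e-05, edgeR), Dvl1 rose 1.94-fold, and Dvl2 did not pass (55.6 and 45.4 CPM, against 52.8 and 52.5 CPM). Nkd2 fell at a low level (0.297 and 0.251 CPM, against 1.01 and 0.736 CPM). The feedback inhibitors Notum, Nkd1 and Axin2 thus stood higher in Ngn3-high, and the feedback ligases Rnf43 and Znrf3 lower.

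All 4 nuclear factors fell in Ngn3-high, where 30.2% of all genes tested were lower. Tcf7l2 had 23.01 and 21.7 CPM in Ngn3-high, against 99.1 and 108 CPM in Ngn3-low (4.37-fold lower, adjusted p = 2.44e-06, edgeR). Tcf7l1, which mostly represses targets, had 6.94 and 7.36 CPM against 49.3 and 51.9 CPM (6.68-fold lower, adjusted p = 1.86e-06, edgeR). Tcf7 and Lef1 were low, at 0.830 and 0.502 CPM (Tcf7) and 0.356 and 0.335 CPM (Lef1) in Ngn3-high against 3.32 and 4.17 CPM and 1.52 and 2.21 CPM in Ngn3-low. The macrophage and endothelial sums given above move with the same contrast as these 4 factors. So does the sum of 7 trunk and duct genes, at 263 and 256 CPM in Ngn3-high against 1949 and 1961 CPM in Ngn3-low. The part of these sums was not tested.

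Some of these calls rested on single libraries. The Axin2 call was lost without Ngn3-low replicate 2 and without Ngn3-high replicate 1, where the adjusted p in edgeR reached 0.0966 and the log2 fold change ranged over 0.52 to 0.98 across 12 alternatives. Sfrp2 was lost without either of the same libraries (adjusted p up to 0.0776), Fzd9 without Ngn3-low replicate 1 (0.0667), Znrf3 without Ngn3-low replicate 1, Ngn3-low replicate 2 or Ngn3-high replicate 1 (up to 0.177), Wnt5a on leaving out any of the 4 libraries compared (up to 0.147), and Nkd2 on leaving out any of the 6 (up to 0.248).

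**Figure D2:**
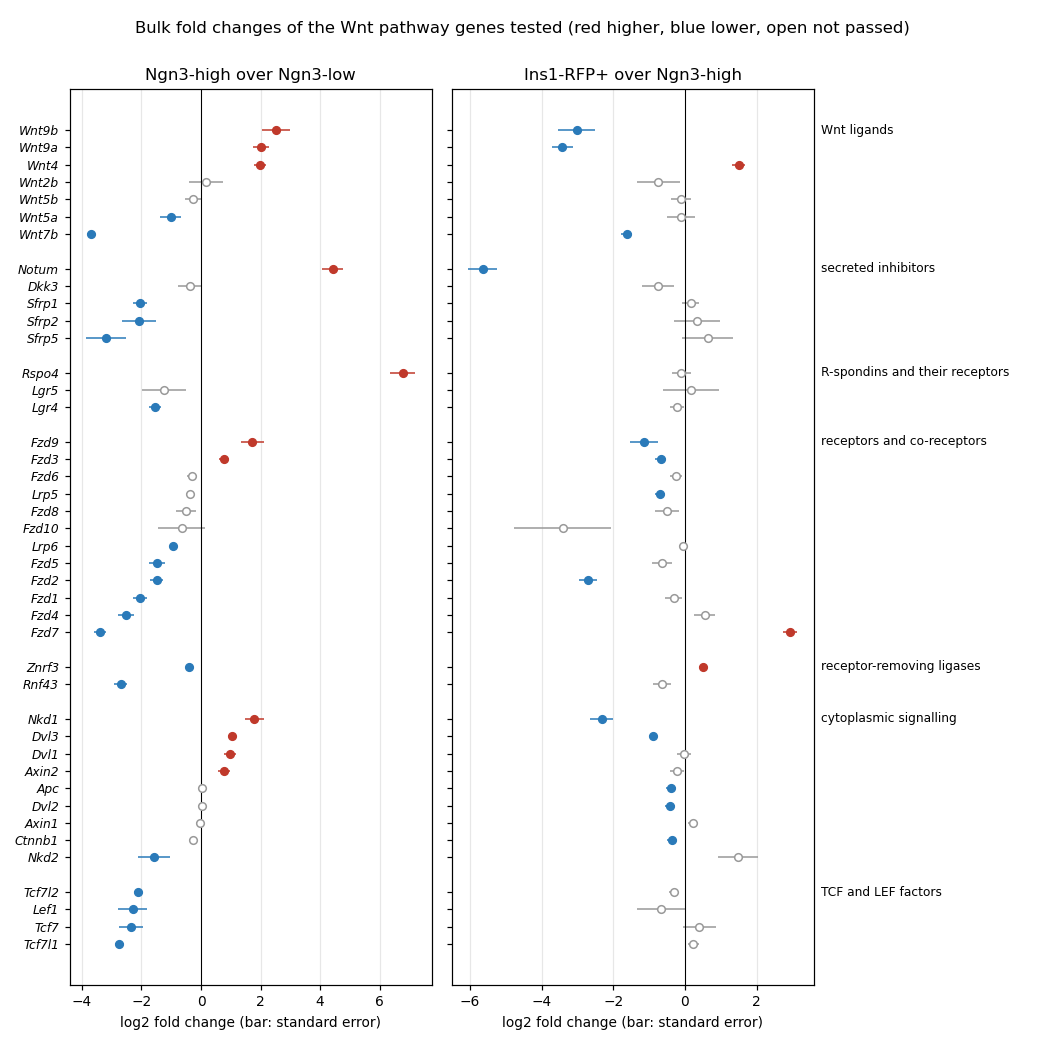
Log2 fold changes in edgeR with standard errors (horizontal axes) of 42 members tested, by role, for Ngn3-high over Ngn3-low (left) and Ins1-RFP+ over Ngn3-high (right); Wnt3 and Wif1 are left out because Ngn3-low had no read of them. In the left panel all 4 TCF and LEF factors lie below 0 and Rspo4 and Notum lie farthest above it; in the right panel Notum lies farthest below 0 and Fzd7 farthest above it.

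The promoters of members that rose together show what the same window holds in each. Shown are all members at 5 CPM or more that were called at least 2-fold higher in Ngn3-high and have an entry in the RefSeq promoter table (GRCm38.p6), which covers 250 bases before to 50 after a gene's start. Notum is not shown. Entries were found for 42 of the 63 members, in 52 windows. The windows are chr11:59306680-59306979 for Wnt9a, chr4:137277385-137277684 for Wnt4, chr2:151842677-151842976 for Rspo4, chr8:88527383-88527682 for Nkd1 and chr16:20516736-20517035 for Dvl3, all on the plus strand. Those of Nkd1 and Rspo4 lie inside the annotated spans of their genes, which begin at 88521342 (Nkd1) and 151842647 (Rspo4). The bases before these outer starts were not searched. Capitals mark matches on either strand to the letters bound by TCF and LEF factors (CTTTGAT, found in 3.73% of all promoter windows, and CTTTGTT, in 5.85%) or to E-box letters that bHLH factors such as Neurog3 can bind (CAGATG, found in 17.2% of windows, CAGCTG, in 16.3%, and CAGGTG, in 20.2%).
Wnt9a: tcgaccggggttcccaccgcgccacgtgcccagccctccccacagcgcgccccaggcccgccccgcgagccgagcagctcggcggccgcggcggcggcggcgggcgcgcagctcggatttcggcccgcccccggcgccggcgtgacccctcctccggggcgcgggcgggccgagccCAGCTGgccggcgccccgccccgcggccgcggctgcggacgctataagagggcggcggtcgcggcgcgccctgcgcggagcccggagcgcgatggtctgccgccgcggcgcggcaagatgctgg
Wnt4: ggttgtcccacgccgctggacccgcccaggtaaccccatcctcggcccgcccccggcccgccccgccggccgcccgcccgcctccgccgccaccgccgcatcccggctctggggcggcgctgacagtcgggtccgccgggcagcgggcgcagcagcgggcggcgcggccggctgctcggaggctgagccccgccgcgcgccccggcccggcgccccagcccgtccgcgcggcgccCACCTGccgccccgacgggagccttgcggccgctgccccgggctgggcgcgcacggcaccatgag
Rspo4: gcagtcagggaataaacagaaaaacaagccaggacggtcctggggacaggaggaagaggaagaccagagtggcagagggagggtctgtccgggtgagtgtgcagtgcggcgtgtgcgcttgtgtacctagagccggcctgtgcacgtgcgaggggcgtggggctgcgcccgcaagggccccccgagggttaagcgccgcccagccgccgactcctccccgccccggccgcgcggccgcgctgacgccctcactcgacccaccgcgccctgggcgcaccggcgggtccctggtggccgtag
Nkd1: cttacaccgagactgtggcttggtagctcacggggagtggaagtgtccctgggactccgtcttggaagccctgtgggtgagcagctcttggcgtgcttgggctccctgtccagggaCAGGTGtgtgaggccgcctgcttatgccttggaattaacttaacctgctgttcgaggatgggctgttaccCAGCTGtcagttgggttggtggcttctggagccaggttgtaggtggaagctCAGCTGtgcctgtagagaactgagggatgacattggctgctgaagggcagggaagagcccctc
Dvl3: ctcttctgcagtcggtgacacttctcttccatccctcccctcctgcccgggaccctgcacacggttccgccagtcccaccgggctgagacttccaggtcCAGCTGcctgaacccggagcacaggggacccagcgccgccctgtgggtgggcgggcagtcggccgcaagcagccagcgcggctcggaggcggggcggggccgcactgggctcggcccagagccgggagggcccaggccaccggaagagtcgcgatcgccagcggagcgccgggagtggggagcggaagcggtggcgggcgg
None of these windows held the TCF and LEF letters, which occur in 9.33% of all 32851 promoter windows and in 6 of the 52 member windows (11.5%). E-box letters stood in the Nkd1 window 3 times and once each in those of Wnt9a, Wnt4 and Dvl3, and not in that of Rspo4. They occur in 44.3% of all windows and 40.4% of member windows.

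In Ins1-RFP+ cells the members that changed against Ngn3-high were mostly lower. Of the 44 tested, 3 were higher in Ins1-RFP+ and 14 lower, and 27 did not pass. Over all genes tested 26.1% were higher and 24.9% lower. The median log2 fold change of the members was -0.34, against 0.01 over all genes. The members summed to 1802 and 1796 CPM in Ins1-RFP+, of which Ctnnb1 gave 750 and 765 CPM. This comparison shares its Ngn3-high libraries with the one before.

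Some of the members that were higher in Ngn3-high than in Ngn3-low were lower again in Ins1-RFP+. Notum had 0.251 and 0.820 CPM in Ins1-RFP+, far below Ngn3-high (log2 -5.64 ± 0.40 (SE), adjusted p = 1.98e-05, edgeR). Without 1 Ins1-RFP+ library this log2 value ranged over -6.65 to -4.998, and that of Nkd1, given next, over -2.93 to -1.88, in both the lower without replicate 2. Wnt9a had 1.51 and 2.76 CPM (10.7-fold lower, adjusted p = 4.39e-05, edgeR), Nkd1 1.76 and 3.73 CPM (5.01-fold lower, adjusted p = 0.000607, edgeR), and Wnt9b 0.188 and 0.373 CPM (8.07-fold lower, adjusted p = 0.00174, edgeR). Dvl3 had 90.2 and 88.6 CPM (1.85-fold lower) and Fzd3 30.96 and 37.6 CPM (1.60-fold lower). Rspo4 did not follow them: it had 20.9 and 17.45 CPM in Ins1-RFP+, against 21.5 and 21.9 CPM in Ngn3-high (log2 -0.10 ± 0.26 (SE), adjusted p = 0.774, edgeR). Axin2 did not pass either (28.6 and 21.3 CPM in Ins1-RFP+, adjusted p = 0.400, edgeR).

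Among the others, Fzd7 returned: 39.8 and 35.5 CPM in Ins1-RFP+, against 6.11 and 4.18 CPM in Ngn3-high (7.64-fold higher, adjusted p = 1.52e-05, edgeR). Wnt4 was higher still, at 33.6 and 31.99 CPM in Ins1-RFP+ (2.82-fold above Ngn3-high, adjusted p = 0.000281, edgeR), and Znrf3 rose 1.42-fold. The acinar, mesenchymal, mesothelial, macrophage and endothelial sums given above are also higher in Ins1-RFP+ than in Ngn3-high, and their part in these rises was not tested. Fzd2 was lower still, at 2.70 and 5.22 CPM (6.50-fold lower, adjusted p = 6.88e-05, edgeR), as was Wnt7b, at 2.51 and 3.06 CPM (3.09-fold lower, adjusted p = 8.20e-05, edgeR), and Lrp5, at 133 and 113 CPM (1.63-fold lower). None of the 4 TCF and LEF factors passed between Ins1-RFP+ and Ngn3-high, with Tcf7l2 at 17.9 and 15.96 CPM and Tcf7l1 at 7.91 and 7.98 CPM in Ins1-RFP+. Lgr4 (28.5 and 43.5 CPM) and Rnf43 (4.27 and 5.97 CPM) did not pass. Ctnnb1 fell 1.30-fold (750 and 765 CPM in Ins1-RFP+, adjusted p = 0.0417, edgeR), a call lost on leaving out any of the 6 libraries (adjusted p up to 0.132). The fall of Fzd9 was lost in the same way (up to 0.190). Apc was lost without Ngn3-low replicate 1 or 2, Ngn3-high replicate 2 or Ins1-RFP+ replicate 1 (up to 0.197), Dvl2 without Ngn3-low replicate 1 or 2, Ngn3-high replicate 1 or Ins1-RFP+ replicate 2 (up to 0.199), Wnt3 without either Ngn3-high library or Ins1-RFP+ replicate 2 (up to 0.134), and Fzd3 without Ngn3-high replicate 2 (0.0516).

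Set against Ngn3-low directly, Ins1-RFP+ cells had 6 members higher and 26 lower, with 12 not passing. Over all genes tested 30.4% were higher and 35.5% lower, and the median log2 fold change was -1.01 for the members and -0.08 for all genes. Of the receptors and co-receptors 10 of 12 were lower and none (0) higher, and all 4 TCF and LEF factors were lower. The largest differences were those of Rspo4 (log2 6.67 ± 0.43 (SE), adjusted p = 3.50e-06, edgeR; 5.71 without Ngn3-low replicate 1, 8.35 without Ngn3-low replicate 2), Wnt7b (40.3-fold lower, adjusted p = 1.82e-07, edgeR), Fzd2 (18.2-fold lower) and Wnt4 (11-fold higher), of the members at 5 CPM or more in a group. Fzd7 was below Ngn3-low (1.38-fold, adjusted p = 0.0414, edgeR), a call lost without Ngn3-low replicate 1, Ngn3-low replicate 2 or Ins1-RFP+ replicate 2 (adjusted p up to 0.223). Without Ngn3-low replicate 2 the count of lower members was 17.

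A further list of 49 Wnt pathway genes, of which 46 were tested, holds enzymes, co-factors and planar polarity genes. In Ngn3-high 23 of them were higher and 9 lower than in Ngn3-low, with a median log2 fold change of 0.37. Over all genes tested 27.7% were higher and 30.2% lower, with a median of -0.01. The largest rises were those of Celsr3, a planar polarity cadherin (235 and 177 CPM in Ngn3-high, against 4.90 and 5.64 CPM in Ngn3-low), Frzb, a secreted Wnt antagonist of the Sfrp family (5.10 and 8.78, against 0.732 and 0.491 CPM), Cxxc4, an inhibitor that binds dishevelled (87.8 and 107, against 14.2 and 14.2 CPM), and Apcdd1, a membrane inhibitor (19.6 and 10.7, against 3.49 and 3.11 CPM). The largest falls were those of Tle4, a co-repressor of TCF factors (3.56 and 3.76, against 27.8 and 30.4 CPM), Vangl1 (4.80 and 4.43, against 18.8 and 21.3 CPM), Wls, which carries Wnt ligands to the cell surface (19.6 and 27.4, against 84.3 and 84.3 CPM), and Ror1 (6.76 and 11.5, against 28.2 and 26.6 CPM). In edgeR their adjusted p lay between 4.35e-07 and 0.000936.

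In Ins1-RFP+ against Ngn3-high, 10 of these 46 genes were higher and 20 lower (median -0.17). Over all genes tested 26.1% were higher and 24.9% lower. Frzb reached 251 and 174 CPM in Ins1-RFP+, 33.1-fold above Ngn3-high (adjusted p = 7.10e-06, edgeR). Wls stood at 190 and 155 CPM (7.83-fold higher) and Tle1 at 61.3 and 65.8 CPM (1.97-fold higher). The same marker sums move with this contrast too, and their part was not tested. Sostdc1, called too, had 0.754 and 18.1 CPM in Ins1-RFP+, so that its level rests on library 2, the one with the higher acinar sum. The largest falls were those of Amer1 (12.7 and 20.4 CPM in Ins1-RFP+, against 102 and 90.7 CPM), Apcdd1 (3.89 and 3.13 CPM), Ptk7 (74.3 and 88.5, against 281 and 242 CPM) and Csnk1e (66.1 and 59.1, against 185 and 168 CPM). Against Ngn3-low, 16 were higher in Ins1-RFP+ and 15 lower. Over all genes tested 30.4% were higher in Ins1-RFP+ and 35.5% lower. Frzb was 372-fold, Celsr3 46.7-fold, Cxxc4 10.7-fold and Sostdc1 12.9-fold higher there, and Prickle2 5.41-fold, Amer1 4.09-fold, Tle4 3.86-fold and Ptk7 3.28-fold lower.

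Of 12 genes known as targets of beta-catenin in other tissues, 10 were tested, and 7 were lower and 2 higher in Ngn3-high than in Ngn3-low. Over all genes tested 30.2% were lower and 27.7% higher. Many other signals also act on these targets. Ccnd1, a cyclin, had 28.1 and 31.7 CPM in Ngn3-high against 306 and 309 CPM in Ngn3-low, Myc 4.69 and 3.01 against 49.04 and 38.3 CPM, Id2 40.4 and 41.6 against 96.3 and 108 CPM, and Cd44 13.1 and 16.98 against 54 and 43.5 CPM. Tbx3 (0.119 and 0.669, against 4.84 and 9.65 CPM) and Tnfrsf19 (0.652 and 0.753, against 3.72 and 4.74 CPM) also fell, while Apcdd1, named above, and Bambi (57.5 and 53.8, against 40.7 and 41.1 CPM) rose and Sox4 did not pass (373 and 432, against 488 and 511 CPM). In Ins1-RFP+ 4 of the 10 targets tested were higher and 4 lower than in Ngn3-high, where 26.1% of all genes tested were higher and 24.9% lower. Myc (23.99 and 23.1 CPM), Ccnd1 (54.1 and 65.2 CPM), Tnfrsf19 (5.09 and 5.97 CPM) and Tbx3 (1.26 and 1.42 CPM) rose, Apcdd1, Bambi (34.3 and 40.6 CPM), Sox4 (154 and 164 CPM) and Id2 (19.9 and 23.7 CPM) fell, and Cd44 did not pass (7.16 and 12 CPM). Against Ngn3-low 7 were lower in Ins1-RFP+ and 0 were higher at an adjusted p under 0.05 in edgeR. Over all genes tested 35.5% were lower and 30.4% higher in that comparison.

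In single cells the targeted gene was lower in the Jmjd3-deleted groups. Kdm6b had 107 CPM in pooled Jmjd3-deleted Ngn3-high cells against 265 CPM in WT Ngn3-high cells, and 55.5 CPM in Jmjd3-deleted Ngn3-low cells against 131 CPM in WT Ngn3-low cells. Which part of Kdm6b the floxed allele removes is not given in the sources used here. Cells held 380478 to 1949839 reads in genes, and pooled values are CPM of the summed counts with exact 95% Poisson intervals, which cover counting error only.

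In the single cells, as in bulk, more members were lower than higher in Ngn3-high, in both genotypes. Of 30 members that in WT cells reached 5 CPM in at least 1 gate, 4 were at least 2-fold higher in Ngn3-high and 16 lower. Over all genes at that level 14% were higher and 19% lower. The median log2 ratio, with 1 CPM added to each side, was -1.49 for the members and -0.05 for all genes. In the Jmjd3-deleted cells 5 of 29 were higher and 13 lower in Ngn3-high. Over all genes 15.3% were higher and 18.7% lower there, with medians of -0.51 for the members and -0.03 for all genes.

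Rspo4 had 29.2 CPM (27.3 to 31.1) in Jmjd3-deleted Ngn3-high cells and 31.6 CPM (29.96 to 33.3) in WT Ngn3-high cells. In Jmjd3-deleted Ngn3-low cells 1 read was found, a ratio of 1520 with a counting interval of 272 to 60100, and in WT Ngn3-low cells none (0), so that WT Ngn3-high was at least 341-fold higher against 3 reads over the group. At 10 CPM or more it was read in 45.5% of Jmjd3-deleted (exact Clopper-Pearson 95% interval 30.4 to 61.2%) and 42.4% of WT Ngn3-high cells (29.6 to 55.9%). No Ngn3-low cell reached 10 CPM, 0 of 69 Jmjd3-deleted cells and 0 of 49 WT cells, for which the same exact intervals reach up to 5.21% and 7.25% (a limit of 3 cells would be 4.35% and 6.12%). The titles number the cells of each group in subsets whose meaning the labels do not give, and Rspo4 lay between 21.7 and 35.6 CPM in each of the subsets of Ngn3-high cells.

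Notum had 8.21 CPM (7.25 to 9.26) in Jmjd3-deleted and 10.2 CPM (9.30 to 11.2) in WT Ngn3-high cells, against 0 and 0.588 CPM in the matching Ngn3-low cells. It was read in 22.7% and 27.1% of the Ngn3-high cells, Jmjd3-deleted first. Nkd1 had 18.4 CPM in Jmjd3-deleted and 18.3 CPM in WT Ngn3-high cells, against 3.09 and 4.83 CPM in Ngn3-low. Wnt9a had 19.3 and 13.2 CPM against 0.499 and 3 CPM in the same order, in 25% and 15.3% of the Ngn3-high cells. Within WT cells of title number 1 the ratio of Wnt9a was small (log2 0.39), and in WT Ngn3-high cells of title number 6 it had 0.0828 CPM. Axin2 had 10.5 and 8.34 CPM in Ngn3-high, against 3.24 and 4.08 CPM in Ngn3-low. For WT cells its direction turned in both title numbers that the gates share (log2 -1.11 for number 1 and -0.91 for number 5), while in Jmjd3-deleted cells these were 1.82 and 0.07.

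Rspo4, Notum, Wnt9a and Nkd1 each reached 10 CPM in a minority of Ngn3-high cells. Of these 4 genes, 31 of the 44 Jmjd3-deleted Ngn3-high cells (70.5%, 54.8 to 83.2%) held at least 1 at 10 CPM or more, and 36 of the 59 WT Ngn3-high cells (61%, 47.4 to 73.5%). All 4 were read together in 2 cells of each of these groups. In Ngn3-low, 7.25% of Jmjd3-deleted and 14.3% of WT cells held at least 1. These 4 genes were chosen as members that stood higher in Ngn3-high, so the difference between gates in these shares follows from the choice. The intervals treat cells as independent and cover no spread between embryos. With 1 reverse-transcribed cell per library, a missing read is no sign that the transcript was absent.

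**Figure D3:**
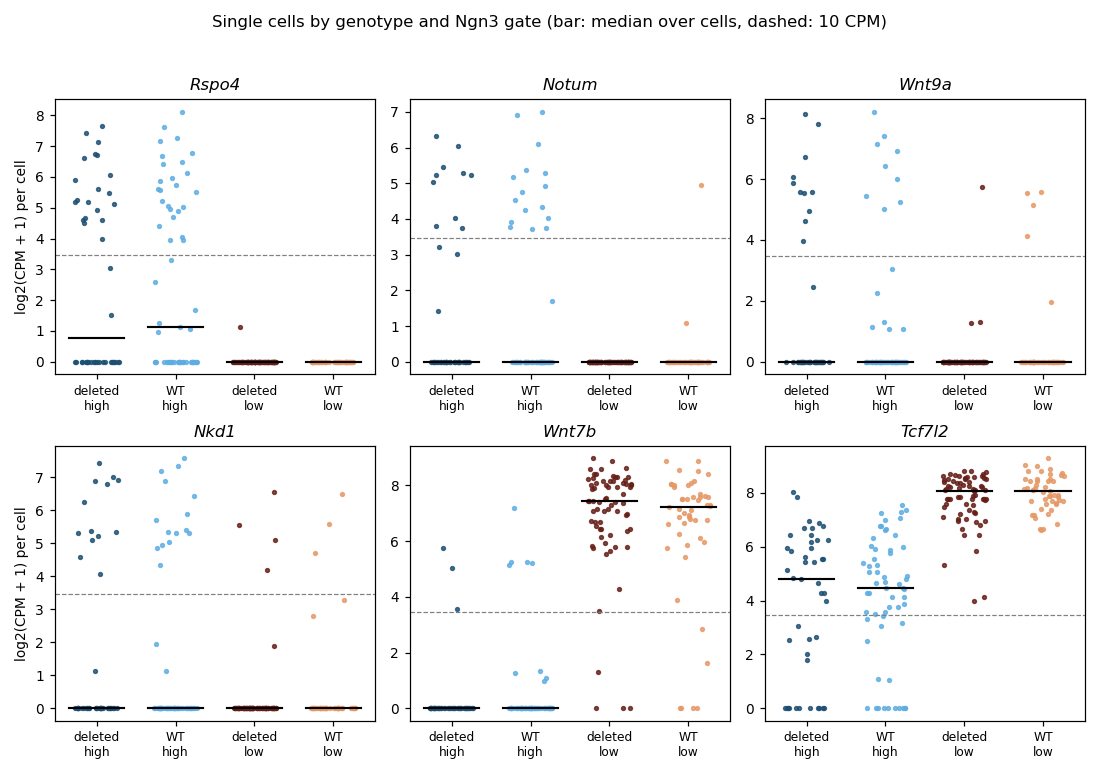
Level per cell on a log2(CPM + 1) scale (vertical axes) of 6 members in the 4 single-cell groups; each point is a cell, bars are medians over cells and the dashed line is 10 CPM. Rspo4, Notum, Wnt9a and Nkd1 are read in some Ngn3-high cells and in few or no Ngn3-low cells, while Wnt7b and Tcf7l2 are read in most Ngn3-low cells.

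Many members that were lower in Ngn3-high in bulk were lower there in single cells too, where the macrophage genes summed to 4.53 CPM (Jmjd3-deleted) and 3.19 CPM (WT) in Ngn3-high and to the 4.62 and 8.91 CPM given above in Ngn3-low. Other marker sums moved with this contrast, and their part was not tested. The 7 trunk and duct genes summed to 441 CPM (Jmjd3-deleted) and 980 CPM (WT) in Ngn3-high, against 6115 and 7745 CPM in Ngn3-low. The 12 acinar genes summed to 60.6 CPM (Jmjd3-deleted) and 18.8 CPM (WT) in Ngn3-high, against 1372 and 1201 CPM in Ngn3-low. The 6 neural crest and glial genes summed to 34.99 and 33.3 CPM in Ngn3-high, against 139 and 121 CPM in Ngn3-low. Of these 6, 3 were at 0 in every single-cell group, and 3 reached 5 CPM in Jmjd3-deleted cells and 2 in WT cells. These sums thus rest on few genes and do not show that such cells were present. Wnt7b had 2.67 CPM in Jmjd3-deleted and 4.71 CPM in WT Ngn3-high cells, against 181 and 166 CPM in Ngn3-low, where 94.2% and 87.8% of cells held it at 10 CPM or more. Tcf7l2 had 46.4 and 39.6 CPM against 253 and 281 CPM, and every Ngn3-low cell (69 of 69 and 49 of 49) held it. Tcf7l1 had 1.67 and 1.31 CPM against 24.2 and 20.3 CPM. Rnf43 had 7.66 and 6.66 CPM against 62.4 and 50.6 CPM, Znrf3 33.6 and 30.8 against 92.0 and 81.6 CPM, and Lgr4 19.9 and 14.8 against 103 and 94.2 CPM. Fzd7 had 0 and 1.15 CPM in Ngn3-high, against 26.3 and 17.8 CPM in Ngn3-low, at least 283-fold lower in the Jmjd3-deleted cells. In WT cells of title number 5 alone Fzd7 went the other way (log2 2.53). Fzd2 had 9.08 and 14.3 CPM against 44.1 and 54.8 CPM, Fzd5 0.589 and 1.77 against 10.2 and 9.12 CPM, and Sfrp1 1.05 and 0.758 against 10.1 and 13.95 CPM. By title number, Lrp6 ranged over 17.9 to 45.4 CPM in Jmjd3-deleted Ngn3-high cells, against 37.8 to 69.3 CPM in Ngn3-low. In WT cells these ranges were 16.1 to 29.2 against 53.9 to 97.1 CPM. Fzd4 had at most 3.21 CPM in any title number of Ngn3-high cells, against 0 to 21.6 CPM in those of Ngn3-low cells. Dvl3 (56.4 and 46.3, against 29.7 and 28.2 CPM) and Dvl1 (14.3 and 14.2, against 6.68 and 6.77 CPM) were higher in Ngn3-high, as in bulk, but under 2-fold with the added 1 CPM. Ctnnb1, at 566 and 541 CPM against 805 and 683 CPM, was read in all cells. Fzd3 (113 and 108, against 98.6 and 76.5 CPM), Lrp5 (20.8 and 22.5, against 19.2 and 26.3 CPM), Fzd6 (21.1 and 23.9, against 26.8 and 36.2 CPM), Dvl2 (25.9 and 28.1, against 34.7 and 41.7 CPM), Apc (44.1 and 49.97, against 59.8 and 56.1 CPM) and Axin1 (8.09 and 9.10, against 11.9 and 11.9 CPM) stayed within 2-fold in both genotypes.

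For a few members bulk and single cells differed. Wnt4 had 1.52 and 1.29 CPM in Ngn3-high single cells, against 2.42 and 1.92 CPM in Ngn3-low, Jmjd3-deleted first, so the rise of Wnt4 in bulk was not seen there. Lef1 had 1.61 and 2.18 CPM in Ngn3-high against 1.19 and 0.866 CPM in Ngn3-low single cells, opposite in direction to bulk. Of the target genes, Cd44 had 14.1 and 5.35 CPM in Ngn3-high against 0.825 and 0.0309 CPM in Ngn3-low single cells, also opposite to bulk, where the Ngn3-low libraries hold the macrophage transcripts given above. Whether these differences come from the cells sorted or from the library method was not tested.

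Of the further Wnt pathway genes at 5 CPM or more, 5 of 38 were at least 2-fold higher and 5 lower in Ngn3-high in Jmjd3-deleted cells. In WT cells 3 of 37 were higher and 7 lower. Over all genes at that level 15.3% were higher and 18.7% lower in Jmjd3-deleted cells, and 14% higher and 19% lower in WT cells. Of the target genes 2 of 8 were higher and 5 lower in Jmjd3-deleted cells, and 1 of 8 higher and 5 lower in WT cells. Ccnd1 had 4.84 and 11.4 CPM in Jmjd3-deleted and WT Ngn3-high cells, against 167 and 195 CPM in Ngn3-low, and Myc 0.062 and 1.63 CPM against 65.9 and 54.99 CPM. Frzb, the antagonist that was high in Ins1-RFP+ in bulk, had 29.6 CPM in Jmjd3-deleted and 0.597 CPM in WT Ngn3-high cells, but 1 cell gave 54.4% of the reads in the Jmjd3-deleted group.

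Between the genotypes few members differed. In Ngn3-low, 2 of 25 members were at least 2-fold higher and 1 lower in Jmjd3-deleted than in WT cells. Over all genes 1.7% were higher and 2.65% lower. Those higher were Fzd1 (16.3 CPM, 15.2 to 17.4, against 6.99 CPM, 6.11 to 7.96) and Fzd4 (11.7 CPM against 5.20 CPM). The log2 ratio of Fzd1 was 1.50, 0.43 and 2.36 within title numbers 1, 2 and 5. Its subsets overlapped, with 4.14 CPM in Jmjd3-deleted cells of number 5 and 10.8 CPM in WT cells of number 2. Fzd4 reached 21.6 CPM in WT Ngn3-low cells of title number 4, above the Jmjd3-deleted value. Lgr5, a receptor for R-spondins that marks many epithelial stem cells, was lower (0.978 CPM against 9.43 CPM), a difference that rests on 2 of 69 and 4 of 49 cells at 10 CPM or more. In Ngn3-high, 2 of 22 members were higher and 0 lower in Jmjd3-deleted cells. Over all genes 2.96% were higher and 2.76% lower. Those higher were Fzd1 (6.32 CPM against no read in WT, at least 91.7-fold) and Dkk3 (5.24 CPM against 1.77 CPM), where 1 cell gave 83.4% of the Jmjd3-deleted Dkk3 reads and 38.2% of the Fzd1 reads. With 1 sample per genotype no spread between embryos is available for any of these values.

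**Figure D4:**
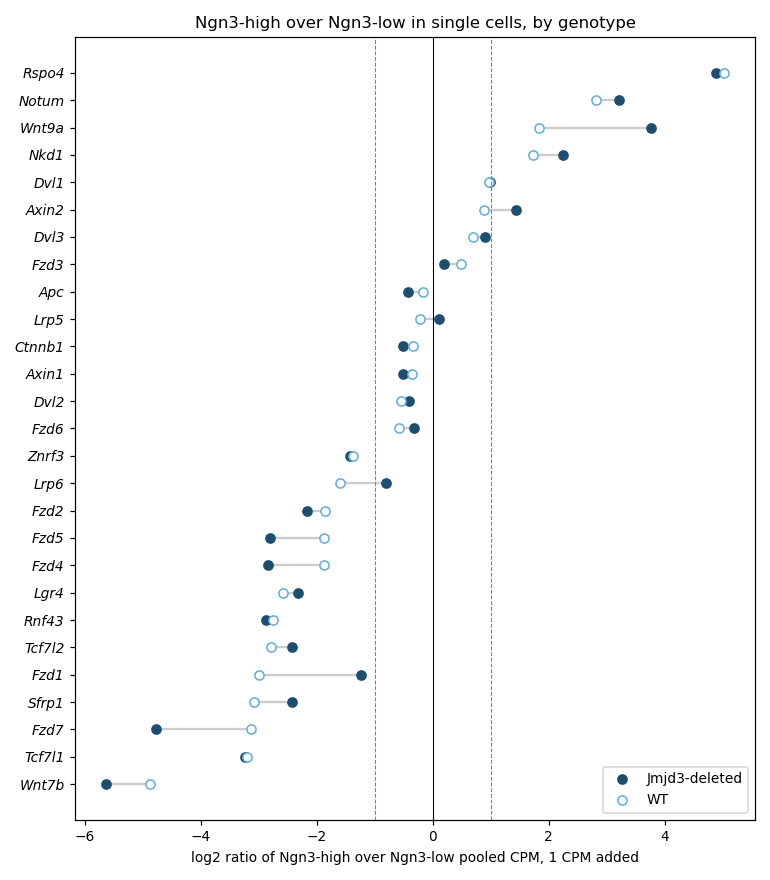
Log2 ratio of Ngn3-high over Ngn3-low pooled CPM with 1 CPM added (horizontal axis) for 27 members at 5 CPM or more that at least 20% of the cells of 1 group held at 10 CPM, in Jmjd3-deleted (filled) and WT cells (open); dashed lines mark 2-fold. Both genotypes lie on the same side of 0 for every member plotted except Lrp5, and Wnt9a, Fzd1 and Fzd7 lie farthest apart.

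The remaining members were low or silent. In bulk 19 of the 63 did not pass the filter, with at most 1.15 CPM in any library. They were the ligands Wnt1, Wnt2, Wnt3a, Wnt6, Wnt7a, Wnt8a, Wnt8b, Wnt10a, Wnt10b, Wnt11 and Wnt16, the inhibitors Dkk1, Dkk2, Dkk4 and Sfrp4, the R-spondins Rspo1, Rspo2 and Rspo3, and Lgr6. Wnt1, Wnt3a and Dkk4 had no read in any bulk library. Wnt5b (2.76 to 4.50 CPM in all 6 libraries), Wnt2b, Dkk3 and Lgr5 were tested and did not pass between Ngn3-high and Ngn3-low.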

How the data were processed

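Bulk poly(A) RNA-seq and single-cell RNA-seq were used; the chromatin samples were left out. The deposited tables hold whole counts of reads per gene, made by the authors, whose processing notes name TopHat2 2.1.0, HTSeq 0.6.0 and the build mm10, and a pooled RPKM per bulk group, scaled by the authors for gene length, which was used only to order levels between genes. No source used here gives the strand setting or annotation of the counting. Rows of the 92 spike-in RNAs were removed, and CPM was computed from the counts of the other 40824 genes.

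All 6 bulk libraries were fitted together with edgeR 4.0.16 in R 4.3.3 (filterByExpr, TMM, quasi-likelihood test), with Benjamini-Hochberg adjustment over 15684 genes and calls at an adjusted p under 0.05. The 3 bulk comparisons share libraries. Counts of single cells were summed per group (scipy 1.17.1 for exact Poisson and Clopper-Pearson 95% intervals), ratios have 1 CPM added to each side, and members are counted past 2-fold with at least 5 CPM in the higher group. No doublet caller was run. Members are given in full when they reach 5 CPM in a bulk group and are called at 2-fold in a bulk comparison, and in single cells when they reach 5 CPM in a group and 10 CPM in at least 20% of its cells. The edgeR script was tested on simulated data. Alternatives were other scalings, DESeq2 1.42.0, no filter, a replicate block, fewer libraries, other pseudocounts and minimums, and single title numbers. The members and lists were chosen with earlier results of these data known.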

Additional observations from a re-analysis of the deposited data

How the results depend on the processing

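Between Ngn3-high and Ngn3-low, 32 members were called, and 28 to 33 on leaving out 1 library at a time; DESeq2 called 32. Between Ins1-RFP+ and Ngn3-high the count was 17, 13 to 15 without 1 library and 14 with DESeq2. Between Ins1-RFP+ and Ngn3-low it was 32, 21 to 31 without 1 library (17 to 25 lower, against 26 with all, the lowest without Ngn3-low replicate 2) and 27 with DESeq2. Same-numbered libraries share only a number (correlations of deviations 0.0895 to 0.107), and with a replicate block 33, 16 and 32 members were called. Scaling by total counts moved the median log2 fold change of all genes between Ins1-RFP+ and Ngn3-low to -0.24, against -0.08, and the share of calls that were higher to 38.5%, against 46.1%, and turned Dvl3 there to -0.020. Some log2 fold changes of Ins1-RFP+ over Ngn3-high that had not passed changed sign without 1 library, among them Axin2, Wnt5a, Wnt2b, Sfrp2 and Dvl1, and, of the members given in full, Sfrp1 (-0.057 to 0.36), Lgr4 (-0.55 to 0.035), Rspo4 (-0.25 to 0.041) and Fzd8 (-0.95 to 0.046).

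In single cells some ratios of Ngn3-high over Ngn3-low turned within a title number, and of the members given in full and past 2-fold in the pooled cells these 4 did: Fzd4 (0.92) and Fzd5 (0.20) in WT cells of number 1, Fzd7 (2.53) in WT cells of number 5, and Fzd1 (0.50) in Jmjd3-deleted cells of number 5. The counts between genotypes were unstable. In Ngn3-low, 3 members passed 2-fold, but 1 with a pseudocount of 5 CPM, 5 with a minimum of 1 CPM, 8, 6 and 9 within title numbers 1, 2 and 5, and 2 to 5 with 1 title number left out. In Ngn3-high, 2 passed, but 1 by the mean of per-cell CPM, 1 with a pseudocount of 5 CPM, 5 with a minimum of 1 CPM, 0 with a minimum of 10 CPM, 5, 9 and 11 within title numbers 1, 5 and 6, and 3 to 4 with 1 title number left out. The cause was not tested. With 2 libraries per bulk group and floors of 0.169 to 0.251 CPM, small changes of low members were not detectable at this depth.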
